A study of Mus musculus with 36 samples.

Results

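Ccl2, Cxcl1, Il6, Nfkbia and Tnfaip3 are 5 genes of inflammatory signalling, followed here in mouse embryonic fibroblasts during hyperosmotic stress and after its removal. They were taken by transcript identifier. All 5 are among the 17469 transcripts of the RNA lists, and all but Il6 are among the 11037 of the ribosome footprint lists. The genes were chosen by measured RNA and footprint values of this series, and which comparison those values came from is not recorded. Their levels are therefore given as a description, and no p-value of a single gene is printed. Counts of genes past a threshold, and the names of those genes, also describe the choice and support nothing, and they stand beside the share of all transcripts past it.

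NF-kB is a transcription factor that resting cells hold in the cytoplasm, bound to inhibitor proteins. Signals that destroy the inhibitor release NF-kB to the nucleus, where it switches on genes for secreted signals and for its own inhibitors. In fibroblasts the secreted signals include Ccl2, which attracts monocytes, Cxcl1, which attracts neutrophils, and Il6, the cytokine interleukin-6. Nfkbia encodes IkBa, which binds NF-kB and takes it back out of the nucleus. Tnfaip3 encodes A20, a ubiquitin-editing enzyme that limits the signalling upstream of NF-kB.

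The cells were fibroblasts of the strain C57BL/6J in glucose-rich DMEM with serum, and stress was applied by adding sorbitol, a sugar alcohol that draws water out of cells. Besides unstressed cells there were 2 h exposures to 500, 600 or 700 mOsm and a 15 min exposure to 700 mOsm. Both 700 mOsm exposures, called short (15 min) and long (2 h) stress, were also followed by recovery for 15 min or 2 h, which makes 9 conditions. Every condition had 2 Ribo-seq libraries, which count the mRNA fragments covered by ribosomes, and 2 libraries of cytoplasmic RNA, 36 in all. Each sample combined several culture plates, and cycloheximide, which holds ribosomes on the mRNA, was added at lysis. No genetic change is named for any group, and the labels do not say whether the 2 libraries of a group came from separate cultures, so the spread between them may be technical. The labelled cell type was not checked against marker genes, because the sources used here do not pair these transcript identifiers with symbols. The symbols of the 5 genes come from the list that defines them.

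Footprint levels are deposited RPKM values over the coding sequence, and RNA levels are deposited FPKM values over the transcript, each divided by 1 scaling factor per library. Both are per length, so levels can be compared between genes within an assay. A level is relative to the typical abundant transcript of its library, and in such bulk samples fewer expressing cells and less RNA per cell cannot be told apart. Paired footprint libraries varied barely beyond counting noise and count as 1 sample, so footprint folds carry a 95% Poisson interval, which covers counting error only, and no test. RNA groups have n = 2. RNA libraries held 6851958 to 55262396 reads and footprint libraries 732758 to 9102089, with the fewest at 700 mOsm without recovery. Transcripts with fewer than 5 footprint reads were as a rule not listed.

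For 2 RNA groups the label and the deposited file name disagree. The files of the group labelled 700 mOsm for 15 min with 2 h of recovery carry a name that reads as 2 h of stress with 15 min of recovery, and the other way round. Across 8446 transcripts, which are not independent replicates, Pearson's r of the footprint change with the RNA change was -0.16 and -0.07 with the groups as labelled. With the groups exchanged it was 0.58 and 0.46. The labels were kept, RNA of both groups is written as "the libraries labelled", and no ratio of footprints to RNA is read for these 2 conditions.

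The upstream sequence of the genes is shown because RNA of 4 of the 5 genes rose together at 500 mOsm and NF-kB sites are the textbook feature of these promoters. RefSeq promoter entries of build GRCm38.p6 were matched by symbol for 4 of the 5 genes. Ccl2, which rose, had no entry, and Il6, which is shown, had no RNA reads at 500 mOsm. The genes shown are therefore not the same 4 as those that rose. Each line gives the 250 bases before the annotated start, 5′ to 3′ on the gene's strand, with matches to the kappaB element, the binding sequence of NF-kB, in capitals. The windows are chr5:90890995-90891244 on the plus strand for Cxcl1, chr5:30012864-30013113 on the plus strand for Il6, chr12:55492648-55492897 on the minus strand for Nfkbia and chr10:19015411-19015660 on the minus strand for the first of 2 Tnfaip3 starts.
Cxcl1: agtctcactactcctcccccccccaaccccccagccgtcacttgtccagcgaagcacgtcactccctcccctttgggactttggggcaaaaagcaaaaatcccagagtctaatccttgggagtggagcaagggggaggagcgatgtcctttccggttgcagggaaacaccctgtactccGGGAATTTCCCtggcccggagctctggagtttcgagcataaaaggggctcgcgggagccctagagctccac
Il6: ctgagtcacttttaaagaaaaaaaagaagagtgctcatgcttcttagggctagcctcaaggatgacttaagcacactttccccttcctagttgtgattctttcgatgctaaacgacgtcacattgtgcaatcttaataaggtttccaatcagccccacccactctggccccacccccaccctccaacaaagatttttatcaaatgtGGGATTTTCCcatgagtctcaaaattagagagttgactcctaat
Nfkbia: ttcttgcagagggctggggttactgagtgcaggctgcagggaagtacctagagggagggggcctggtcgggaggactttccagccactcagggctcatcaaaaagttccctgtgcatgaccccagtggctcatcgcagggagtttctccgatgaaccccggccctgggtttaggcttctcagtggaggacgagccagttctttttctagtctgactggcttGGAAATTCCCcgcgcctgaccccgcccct
Tnfaip3: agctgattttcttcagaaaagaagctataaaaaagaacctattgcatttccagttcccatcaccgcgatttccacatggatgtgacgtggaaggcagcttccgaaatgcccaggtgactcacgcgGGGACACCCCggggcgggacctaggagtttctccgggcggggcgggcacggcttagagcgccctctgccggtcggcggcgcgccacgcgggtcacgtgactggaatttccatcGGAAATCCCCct
A kappaB match stood in all 4 windows shown, but not in the window before the second Tnfaip3 start. Of the 32851 promoter windows of the same length, 7.3% had a match, counting both strands. In Cxcl1 the matches GGGAATTTCC and GGAATTTCCC overlapped on opposite strands 71 to 61 bases before the start. Il6 held GGGATTTTCC 44 to 35 bases before the start, and Nfkbia held GGAAATTCCC 29 to 20 bases before it. Tnfaip3 held GGGACACCCC 125 to 116 bases and GGAAATCCCC 12 to 3 bases before its first start, and the window before its second start held no match. The AP-1 element TGANTCA was matched in Il6 and Tnfaip3, against 6.7% of all windows. The tonicity element TonE, bound by the osmotic stress factor NFAT5, was matched at 2 places in Nfkbia, 1 of them overlapping the kappaB match, against 4.3% of all windows. A match describes the letters of the window and is not a measured binding site.

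Ccl2 (ENSMUST00000000193, chr11:82035577-82037452, 149 codons) had more RNA at 500 mOsm and after full recovery from the long exposure, with levels near those of unstressed cells at 600 mOsm and at 700 mOsm for 2 h. Its RNA stood at 25.4 and 27.4 scaled FPKM in the 2 unstressed libraries, 61.5 and 67.5 at 500 mOsm, and 25.8 and 26.0 at 600 mOsm. It stood at 44.1 and 44.7 after 15 min at 700 mOsm and at 22.8 and 26.7 after 2 h. The 500 mOsm and 15 min libraries were above both unstressed libraries, and the 600 mOsm and 2 h libraries overlapped them. Short exposure with 15 min of recovery gave 45.0 and 46.3, and long exposure with 2 h of recovery gave 69.0 and 70.5, the highest pair of the 9. The libraries labelled 15 min with 2 h of recovery had 25.6 and 29.2, and those labelled 2 h with 15 min of recovery had 52.7 in each. Ccl2 RNA was thus 2.45-fold (log2 1.26, SE 0.10) above unstressed cells at 500 mOsm and 2.64-fold (log2 1.37, SE 0.09) after 2 h at 700 mOsm and 2 h of recovery.

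Ccl2 footprints had a different order from Ccl2 RNA, with 500 mOsm first. They stood at 92.8 and 105 scaled RPKM in unstressed cells, at 391 and 421 at 500 mOsm, and at 98.3 and 113 at 600 mOsm. At 700 mOsm they stood at 137 and 150 after 15 min and at 76.9 and 123 after 2 h. Recovery after 15 min of stress gave 153 and 155 at 15 min and 173 and 180 at 2 h. Recovery after 2 h of stress gave 95.7 and 101 at 15 min and 264.5 and 276 at 2 h. The 500 mOsm level was 4.10-fold (95% interval 3.76 to 4.47, from 1785 against 708 reads) the unstressed one, and the level after long stress and 2 h of recovery was 2.73-fold (2.49 to 2.99). The counting intervals of unstressed cells, 600 mOsm, long stress and long stress with 15 min of recovery overlapped, so the order of these 4 is not resolved.

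Cxcl1 (ENSMUST00000031327, chr5:90891245-90893121, 97 codons) had the highest RNA and footprint levels of the 5 genes after long stress and 2 h of recovery. Its RNA stood at 13.9 and 14.8 scaled FPKM in unstressed cells and at 29.2 and 33.2 at 500 mOsm. At 600 mOsm it stood at 8.96 and 14.2, with 1 library inside and 1 below the unstressed pair. At 700 mOsm it stood at 13.6 and 13.9 after 15 min and at 7.95 and 7.96 after 2 h, the lowest pair. After short stress and 15 min of recovery Cxcl1 RNA reached 30.8 and 31.4. After long stress and 2 h of recovery it reached 145 and 153, above every other RNA library. The libraries labelled 15 min with 2 h of recovery overlapped unstressed cells at 14.1 and 15.2, and those labelled 2 h with 15 min of recovery stood at 48.8 and 54.9. The rise over unstressed cells after long stress and 2 h of recovery was 10.4-fold (log2 3.29, SE 0.18), the 20th highest change of 9275 transcripts, against 2.18-fold (log2 1.07, SE 0.20) at 500 mOsm.

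Cxcl1 footprints were above the unstressed level in every other condition. They stood at 31.2 and 32.0 scaled RPKM in unstressed cells and at 172 and 190 at 500 mOsm. They stood at 69.4 and 74.4 at 600 mOsm, at 65.2 and 68.1 after 15 min at 700 mOsm, and at 63.1 and 88.6 after 2 h, and the counting intervals of these 3 overlapped. In recovery from 15 min of stress they stood at 115 and 136 after 15 min and at 143 and 147 after 2 h. In recovery from 2 h of stress they stood at 67.7 and 74.2 after 15 min and at 622 and 626 after 2 h. The last pair was 19.7-fold (16.7 to 23.3, from 1776 against 147 reads) the unstressed level and ranked 13th of 8849 transcripts. At 500 mOsm the fold was 5.72 (4.76 to 6.87), ranked 9th. At 700 mOsm the fold rested on 27 and 28 reads, with 2.11 (1.40 to 3.18) after 15 min and 2.40 (1.60 to 3.59) after 2 h. Without the scaling factors these changes were 0.50 and 0.77 on the log2 scale in place of 1.05 and 1.24, so they kept their direction and no longer reached 2-fold. The intervals given belong to the scaled folds, and none was computed without the scaling factors.

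Il6 (ENSMUST00000026845, chr5:30013114-30019975) was at the limit of detection. It was listed in 7 of 18 RNA libraries with 1 to 5 reads each, 21 reads out of 515691225 in all, and its highest level was 0.147 scaled FPKM. No footprint library listed it. It was too low to pass the filter on mean level, so the counts below cover 4 of the 5 genes. Both libraries listed it after 15 min at 700 mOsm (3 and 5 reads) and after short stress with 15 min of recovery (5 and 1). The same held after long stress with 2 h of recovery (4 and 2), and the libraries labelled 2 h with 15 min of recovery held 1 read. No library of the other conditions, unstressed cells among them, listed it. Whether Il6 changed between conditions was not tested, and reads this few give no reliable size of a change.

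Nfkbia (ENSMUST00000021413, chr12:55489409-55492647, 315 codons) had more RNA than unstressed cells at 500 mOsm and after long stress with 2 h of recovery, and less at 700 mOsm for 2 h. Its RNA stood at 18.8 and 22.0 scaled FPKM in unstressed cells, at 52.3 and 55.5 at 500 mOsm and at 16.2 and 16.6 at 600 mOsm. It stood at 17.1 and 19.3 after 15 min at 700 mOsm and at 11.8 and 15.2 after 2 h. The 15 min libraries overlapped the unstressed pair, and the 2 h libraries were below it. Short stress with 15 min of recovery gave 25.3 and 26.6, and long stress with 2 h of recovery gave 67.1 and 72.3. The libraries labelled 15 min with 2 h of recovery stood at 20.5 and 21.0 and those labelled 2 h with 15 min of recovery at 20.2 and 24.0, both overlapping unstressed cells. Nfkbia RNA was 2.64-fold (log2 1.36, SE 0.14) the unstressed level at 500 mOsm and 3.42-fold (log2 1.73, SE 0.13) after long stress and 2 h of recovery. At 700 mOsm for 2 h it fell by 0.57 on the log2 scale (SE 0.15).

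Nfkbia footprints were lowest at 700 mOsm. They stood at 37.7 and 40.8 scaled RPKM in unstressed cells, at 89.9 and 101 at 500 mOsm and at 16.6 and 21.0 at 600 mOsm. After 15 min at 700 mOsm 1 library gave 8.74, from 5 reads, and the other did not list the gene, where 5 reads would have been 6.69. With the unlisted library taken at that minimum, the level was 5.08-fold below that of unstressed cells, a value that leaves out counting error. After 2 h at 700 mOsm they stood at 8.96 and 14.5 from 14 reads, 3.34-fold below unstressed cells. As a fold of the unstressed level this was 0.30 (0.18 to 0.51), an interval that includes falls under 2-fold. The 600 mOsm level was 2.09-fold below, or 0.48-fold (0.39 to 0.59) the unstressed level. This fall came under 2-fold without the scaling factors (log2 -0.91), without 600 mOsm replicate 1 (log2 -0.87) and without unstressed replicate 1 (log2 -0.97). In recovery from 15 min of stress the level was 43.8 and 51.7 after 15 min and 37.4 and 40.9 after 2 h, the first above the counting interval of unstressed cells and the second within it. In recovery from 2 h of stress it was 26.1 and 33.9 after 15 min and 81.3 and 83.1 after 2 h. That last level was 2.10-fold (1.88 to 2.33) the unstressed one, and 0.99 on the log2 scale without unstressed replicate 2.

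Tnfaip3 (ENSMUST00000019997, chr10:19000910-19015410, 776 codons) had the lowest unstressed level of the 4 genes measured in both assays and the largest RNA fold. Its RNA stood at 2.58 and 2.85 scaled FPKM in unstressed cells, at 11.5 and 12.0 at 500 mOsm and at 3.56 and 3.91 at 600 mOsm. It stood at 2.93 and 3.19 after 15 min at 700 mOsm and at 1.51 and 2.22 after 2 h, above and below both unstressed libraries. Short stress with 15 min of recovery gave 5.41 and 5.42, and long stress with 2 h of recovery gave 48.1 and 50.0. The libraries labelled 15 min with 2 h of recovery stood at 3.30 and 4.01 and those labelled 2 h with 15 min of recovery at 5.26 and 5.93. Tnfaip3 RNA was 18.1-fold (log2 3.75, SE 0.14) the unstressed level after long stress and 2 h of recovery, the 15th highest change of 9275. At 500 mOsm it was 4.34-fold (log2 1.78, SE 0.15), the 9th highest.

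Tnfaip3 footprints stood at 4.69 and 5.16 scaled RPKM in unstressed cells, at 20.7 and 22.8 at 500 mOsm and at 7.01 and 10.4 at 600 mOsm. After 15 min at 700 mOsm neither library listed the gene, where 5 reads would have been 3.55 and 2.72. Taken at these values it was 1.57-fold below unstressed cells, which leaves out counting error, and no larger fall is shown. After 2 h at 700 mOsm it stood at 3.64 and 4.43 from 12 reads, 1.22-fold below unstressed cells with counting intervals that overlapped. In recovery from 15 min of stress it stood at 9.75 and 10.8 after 15 min and at 7.43 and 7.50 after 2 h. In recovery from 2 h of stress it stood at 8.03 and 8.95 after 15 min and at 58.1 and 60.1 after 2 h. In the order of levels, the counting intervals of neighbours among the first 3 of these recoveries and 600 mOsm overlapped, and all 4 lay above that of unstressed cells. The last pair was 12.0-fold (10.3 to 14.0, from 1346 against 183 reads) the unstressed level, ranked 23rd of 8849.

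**Figure D1:**
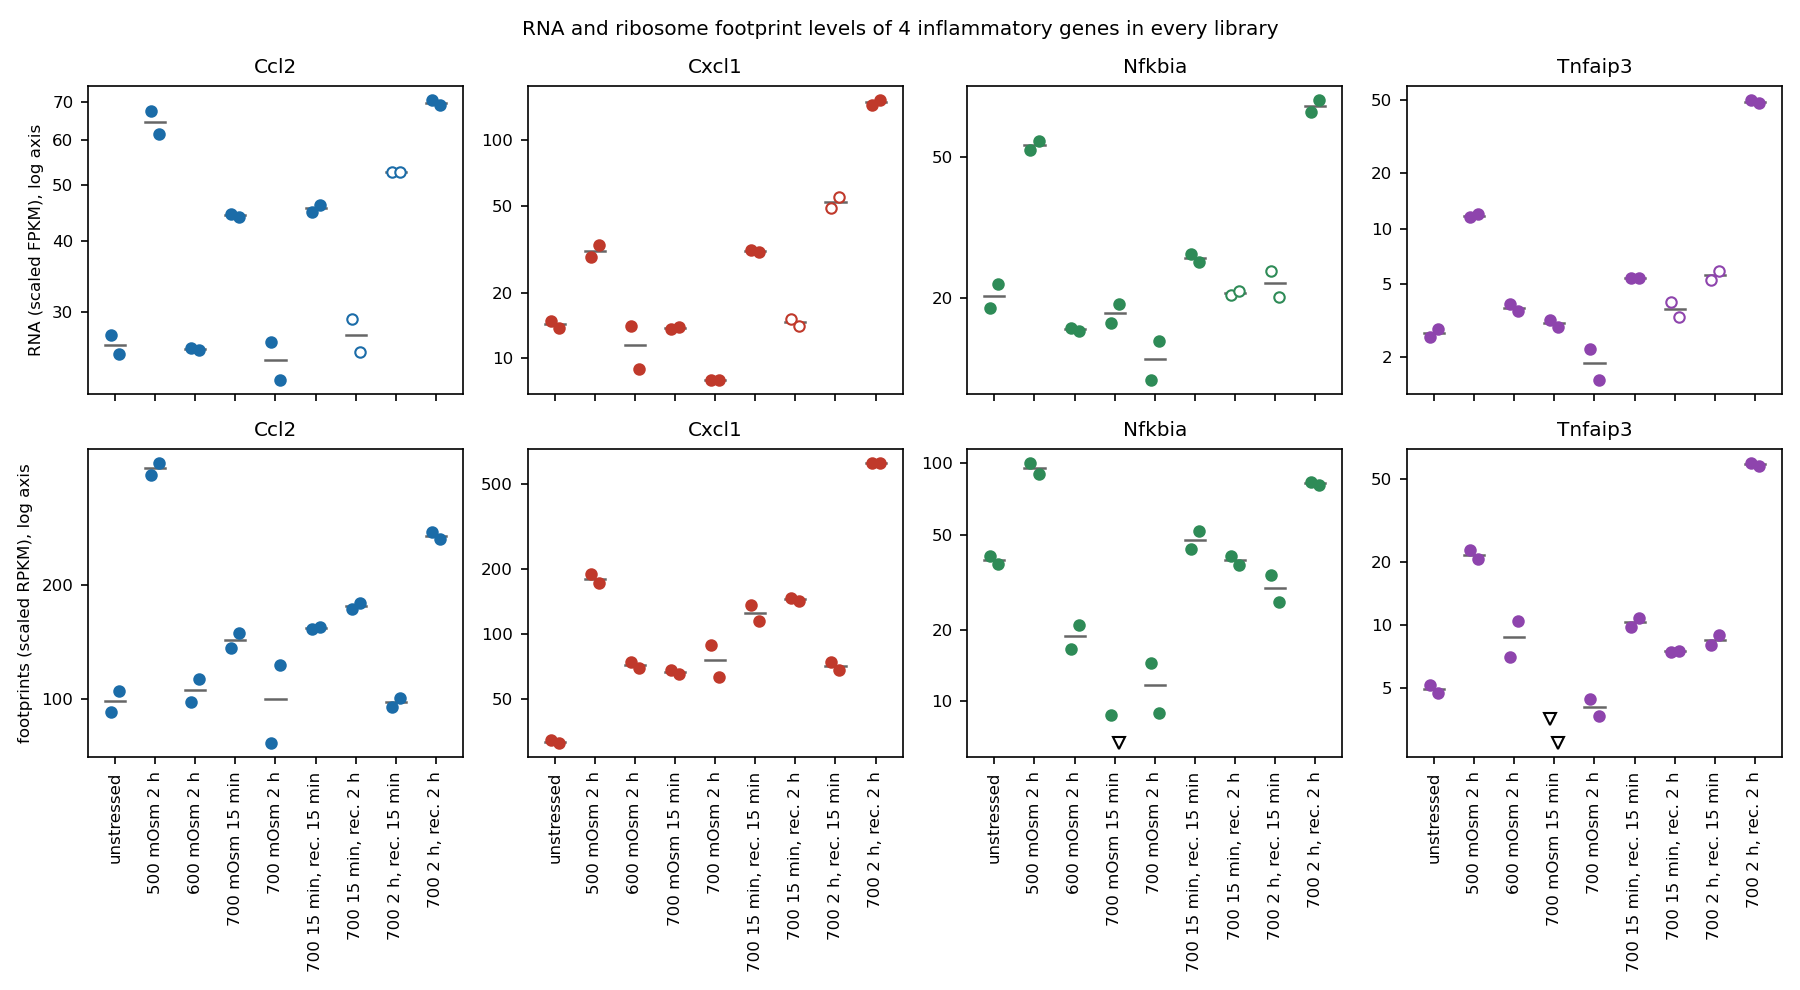
RNA (top, scaled FPKM) and footprint levels (bottom, scaled RPKM) of 4 genes on log axes with a range of their own, 1 point per library, lines at the mean of a pair; open circles are the 2 RNA groups whose label and file name disagree, and triangles mark the value of 5 reads where a library did not list the gene. The pair after 700 mOsm for 2 h and 2 h of recovery (rec.) is the highest RNA pair of all 4 genes, and for Nfkbia and Ccl2 the highest footprint pair is 500 mOsm.

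Set against all transcripts, 500 mOsm for 2 h moved few RNAs and all 4 genes were among them. All 4 rose in RNA (limma), where 1.55% of 9275 transcripts rose, and their median change was 1.31 on the log2 scale against -0.01 over all transcripts. All 4 were at least 2-fold higher in footprints, where 0.768% of 8849 transcripts were, with a median of 1.98 against -0.13. The footprint change exceeded the RNA change by 0.77 for Ccl2 and 1.41 for Cxcl1, the chemokines, and differed from it by -0.10 for Nfkbia and 0.16 for Tnfaip3, the inhibitors.

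At 600 mOsm for 2 h none of the 4 genes passed the limma threshold in RNA, where 13% of transcripts did, and 2 of the 4 were at an unadjusted p under 0.05. The count was 2 with voom on the recovered reads (Nfkbia at -0.30 and Tnfaip3 at 0.46 on the log2 scale) and 1 with equal weights (Tnfaip3, 0.35). It was 1 without 600 mOsm replicate 1, unstressed replicate 1 or unstressed replicate 2, and 0 without 600 mOsm replicate 2. The Cxcl1 RNA change rested on which 600 mOsm library was kept, at -0.62 without replicate 1 and -0.02 without replicate 2, in place of -0.32. In footprints Cxcl1 was at least 2-fold higher, as were 3.77% of all transcripts, and Nfkbia at least 2-fold lower, as were 35%. The Nfkbia count of 1 became 0 without the scaling factors (log2 -0.91). It also became 0 without 600 mOsm footprint replicate 1 (log2 -0.87) and without unstressed footprint replicate 1 (log2 -0.97). Ccl2 (log2 0.09) and Tnfaip3 (log2 0.71) lay above the median of all transcripts, -0.40.

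At 700 mOsm the whole table spread out, and the changes of the 4 genes lay within the middle 95% of all transcripts in both assays, with Ccl2 RNA after 15 min at its upper limit of 0.73. After 15 min Ccl2 rose in RNA, by that log2 change (SE 0.09), where 19.3% of transcripts rose, and the other 3 did not pass. After 2 h Cxcl1 fell by 0.77 (SE 0.21) and Nfkbia by 0.57, where 31% of transcripts fell. Tnfaip3 was at -0.39 there, not counted. Its value was -0.57 without 700 mOsm 2 h replicate 1 and -0.20 without replicate 2, and -0.44 and -0.33 without unstressed replicate 1 and 2. It was counted in each of these but the second, and with a pseudocount of 0.25, without the scaling factors, with equal weights and with a replicate block. After 15 min the count was 2, with Nfkbia (-0.26), without unstressed replicate 1.

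In footprints at 700 mOsm Cxcl1 was at least 2-fold higher at both times, as were 17.2% of transcripts after 15 min and 16.6% after 2 h. Without the scaling factors these shares were 8.61% and 10.5%, and Cxcl1 was not among them. After 2 h it was also under 2-fold without 700 mOsm 2 h replicate 1 (0.97 on the log2 scale in place of 1.24). Nfkbia was at least 2-fold lower at both times, as were 46.9% and 45.5% of transcripts, or 55.5% and 54.6% without the scaling factors, with unlisted transcripts at 0. Tnfaip3, unlisted after 15 min, is not placed against that mark. Ccl2 footprints were at 0.53 after 15 min and 0.01 after 2 h on the log2 scale, and at -0.03 and -0.46 without the scaling factors, so their direction depends on the scaling. The scaling moved the median of all transcripts from -1.29 to -0.80 after 15 min and from -1.21 to -0.80 after 2 h. Ccl2, Cxcl1 and, after 2 h, Tnfaip3 (-0.24) lay above that median and Nfkbia (-2.91 and -1.66) below it.

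After short stress and 15 min of recovery, Ccl2 (log2 0.77), Cxcl1 (log2 1.07) and Tnfaip3 (log2 0.79) rose in RNA, where 4.39% of transcripts rose. Nfkbia was at 0.34 (SE 0.13), not counted, and was counted with equal weights, with voom and without unstressed replicate 2 (0.45). Cxcl1 footprints were 3.97-fold (3.26 to 4.83) the unstressed level, the 9th highest of 8849 and the 1 gene of the 4 past 2-fold, as were 0.61% of all transcripts. Tnfaip3 footprints were 2.09-fold (1.71 to 2.55) in scaled RPKM and at 0.93 on the log2 scale with 1 added, just under the 2-fold mark. Ccl2 footprints were 1.56-fold (1.40 to 1.74) and Nfkbia footprints 1.22-fold (1.07 to 1.38).

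After short stress and 2 h of recovery, Cxcl1 footprints were 4.59-fold (3.85 to 5.47) the unstressed level, the 4th highest change of 8849, where 0.667% were at least 2-fold higher. Ccl2 footprints were 1.78-fold (1.63 to 1.95), Tnfaip3 footprints 1.52-fold (1.27 to 1.82) and Nfkbia footprints 1.00-fold (0.89 to 1.11). In the RNA libraries labelled with this condition limma called 0 of the 4 genes, where it called 13.3% of transcripts. The count was 1 at an unadjusted p under 0.05, and 1 with voom, with equal weights and without unstressed replicate 2.

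After long stress and 15 min of recovery, Cxcl1 footprints were 2.24-fold (1.75 to 2.87) the unstressed level, as were 1.83% of transcripts by at least 2-fold. Tnfaip3 footprints were 1.72-fold (1.36 to 2.19), Ccl2 footprints 0.99-fold (0.86 to 1.15) and Nfkbia footprints 0.76-fold (0.64 to 0.91). In the RNA libraries labelled with this condition Ccl2 (log2 0.97), Cxcl1 (log2 1.78, the 7th highest of 9275) and Tnfaip3 (log2 0.83) rose, where 8.09% of transcripts rose. Label and file name disagree on which recovery these RNA values belong to, and the correlations given above were higher with the 2 groups exchanged.

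Long stress followed by 2 h of recovery gave the highest RNA levels of all 4 genes. All 4 rose against unstressed cells, where 13.9% of transcripts rose, with a median of 2.51 on the log2 scale against 0.02 over all transcripts. In footprints all 4 were at least 2-fold higher, as were 3.88%, with a median of 2.39 against -0.13. Cxcl1 and Tnfaip3 stood apart from Ccl2 and Nfkbia in size, at 3.29 and 3.75 against 1.37 and 1.73 in RNA and at 4.26 and 3.34 against 1.44 and 1.05 in footprints.

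The levels after long stress and 2 h of recovery were also set against the end of the stress. Against 700 mOsm for 2 h all 4 rose in RNA, where 42.1% of transcripts rose, by 4.14 for Tnfaip3 (SE 0.11), 4.07 for Cxcl1 (SE 0.15), 2.29 for Nfkbia (SE 0.10) and 1.46 for Ccl2 (SE 0.07). All 4 were at least 2-fold higher in footprints, as were 40.1% of transcripts, or 49.6% without the scaling factors. Their ranks were lower in footprints than in RNA, with Tnfaip3 13th of 9275 in RNA and 454th of 8849 in footprints. These comparisons share the recovery libraries with the one against unstressed cells.

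Against short stress with the same 2 h of recovery, footprints of Tnfaip3 were 7.92-fold (7.01 to 8.93), of Cxcl1 4.30-fold (3.96 to 4.68), of Nfkbia 2.10-fold (1.89 to 2.33) and of Ccl2 1.53-fold (1.42 to 1.65). The first 3 were past 2-fold, as were 3.89% of transcripts. Nfkbia was at 0.99 on the log2 scale without replicate 2 of short stress with 2 h of recovery. In RNA all 4 rose against the libraries labelled with the short exposure, where 27.8% of transcripts rose. The RNA level after long stress and 2 h of recovery was above both groups with disagreeing names for each of the 4 genes, so that direction does not rest on which label is used.

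**Figure D2:**
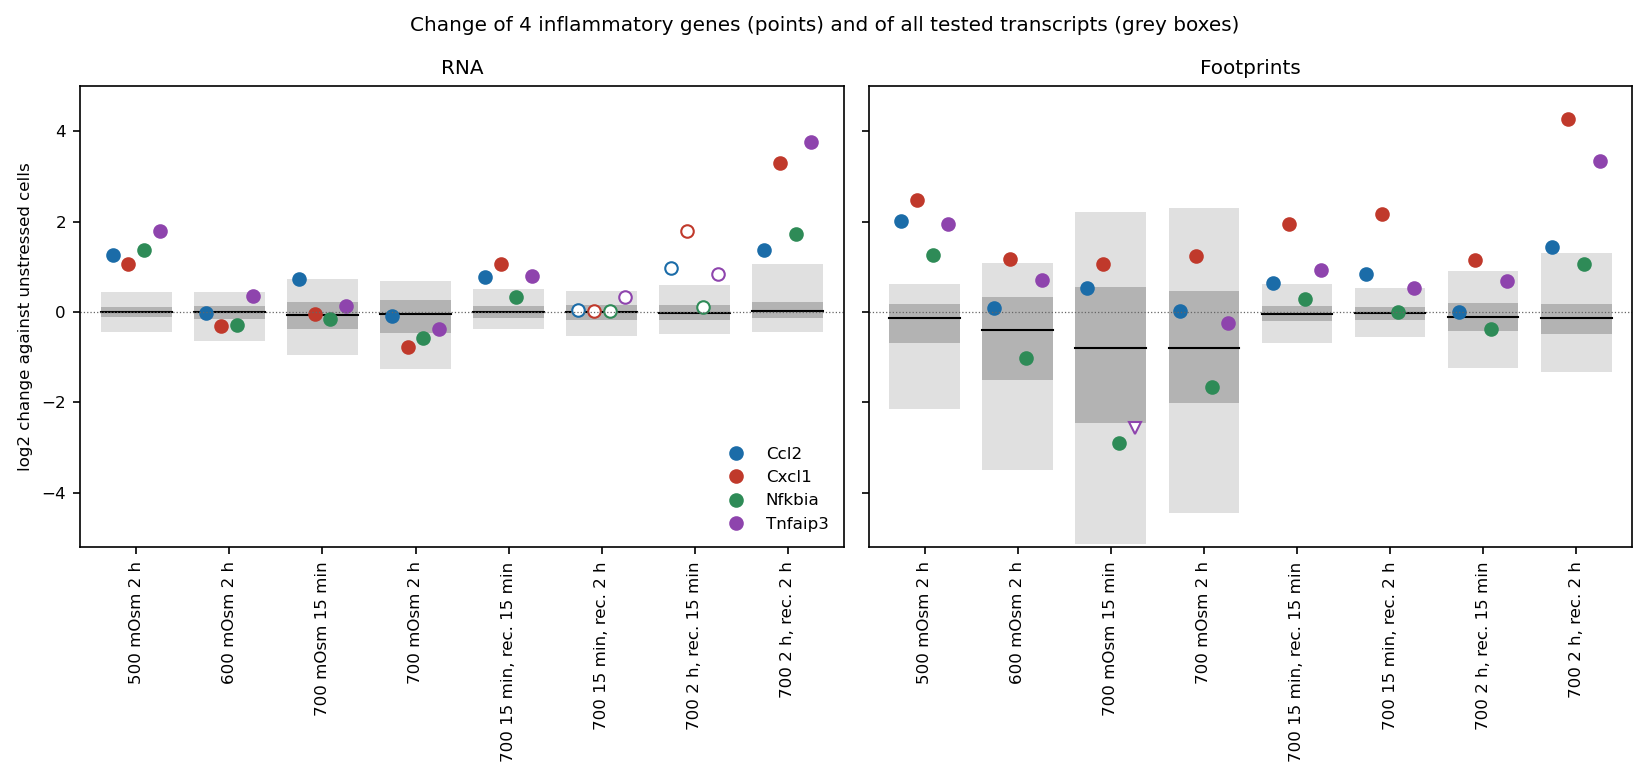
Log2 change against unstressed cells (vertical axis, both panels) for each of the 8 other conditions, in RNA (left) and footprints (right); points are the 4 genes, the line, dark box and light box are the median, middle 50% and middle 95% of all tested transcripts, open circles are the 2 RNA groups whose label and file name disagree, and the open triangle is Tnfaip3, unlisted and set to 0. Cxcl1 lies above 0 in footprints in all 8 conditions, while in RNA at 700 mOsm for 2 h it lies at -0.77.

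Footprint levels relative to RNA levels were higher for both chemokines than for both inhibitors in the 7 conditions read, though Cxcl1 and Nfkbia were close in unstressed cells. The ratio, taken as log2 of footprints plus 1 over RNA plus 1, compares the scaled values of the 2 assays and has no absolute meaning. In unstressed cells it was 1.87 for Ccl2, 1.09 for Cxcl1, 0.91 for Nfkbia and 0.67 for Tnfaip3, against a median of 0.64 and a middle 50% from 0.02 to 1.31 over 8446 transcripts. Ccl2 stood above that middle 50% in each of the 7 conditions whose RNA labels are not in doubt, from 1.67 after 15 min at 700 mOsm to 2.63 at 500 mOsm. Cxcl1 stood inside it in unstressed cells and above it in the other 6.

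Cxcl1 had the largest ratio gains of the 4 genes. Against unstressed cells the gain was 1.41 on the log2 scale at 500 mOsm, the 6th highest of 8446 transcripts, where 0.343% gained at least 2-fold. It was 1.48 at 600 mOsm, where 2.52% gained that much, and 2.01 at 700 mOsm for 2 h, where 14.4% did. In the last of these, Cxcl1 RNA was 1.80-fold below and Cxcl1 footprints 2.40-fold above unstressed cells. Without the scaling factors the gain there was 1.63, and after 15 min at 700 mOsm it was 0.61 in place of 1.11, under the 2-fold mark that 14.9% of transcripts passed. In recovery it was 0.89 after short stress and 15 min and 0.97 after long stress and 2 h, both just under the 2-fold mark that 0.367% and 0.604% of transcripts passed, and past it without 1 library: footprint replicate 2 of the short recovery (1.00), and RNA replicate 2 of the long recovery or of unstressed cells (1.01 each).

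Ccl2 gained 0.77 at 500 mOsm, ranked 88th of 8446, and was within 0.20 of its unstressed ratio at 600 mOsm, at 700 mOsm and in the 2 recoveries read. Without the scaling factors its change was -0.70 after 15 min and -0.28 after 2 h at 700 mOsm, in place of -0.20 and 0.10, so the direction after 2 h depends on the scaling. The Nfkbia ratio changed by -0.10 at 500 mOsm and by -1.09 after 2 h at 700 mOsm, where 39.5% of transcripts lost at least 2-fold. The second value was -0.81 without footprint replicate 2 of 700 mOsm for 2 h, -0.92 without its RNA replicate 2 and -0.98 without unstressed RNA replicate 1, all under 2-fold. After 15 min at 700 mOsm, where 45.1% of transcripts lost at least 2-fold, the change was -2.05 for Nfkbia and -0.65 for Tnfaip3 with unlisted libraries taken at the listing minimum. After long stress and 2 h of recovery Nfkbia was at -0.68 and Tnfaip3 at -0.41, against a median of -0.16 over all transcripts, and neither reached the 2-fold loss that 7.58% of transcripts had.

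**Figure D3:**
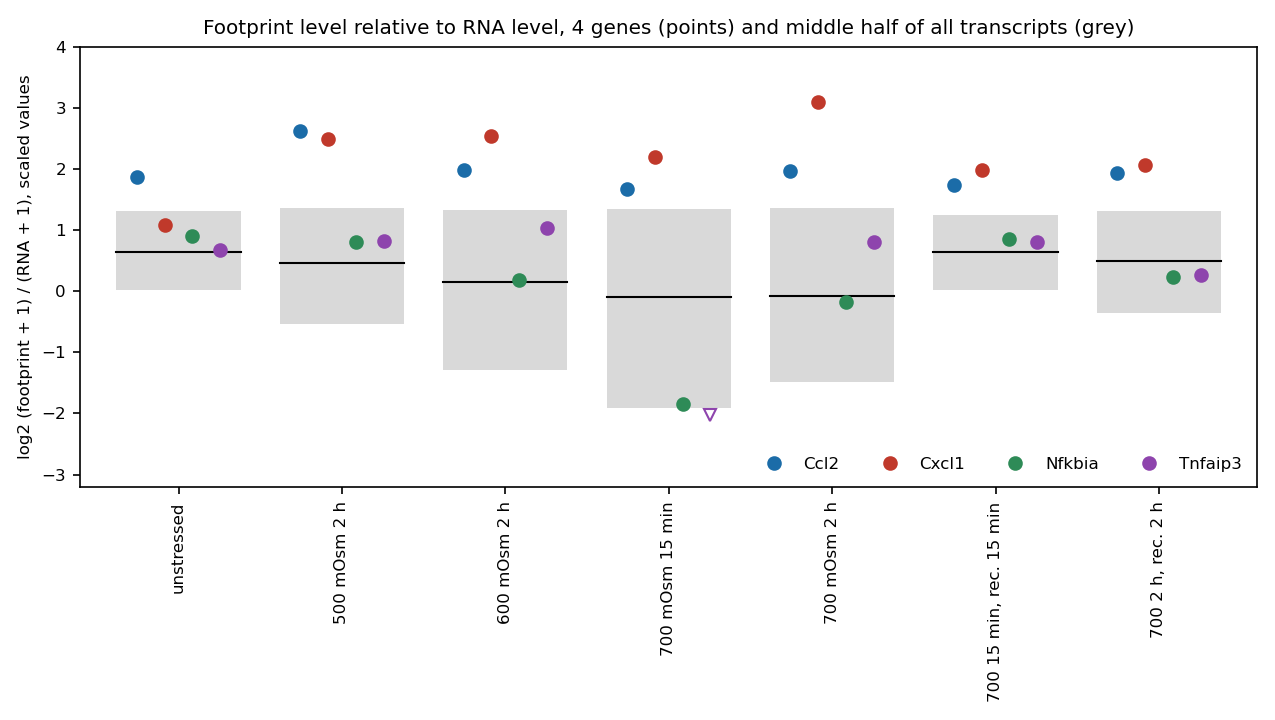
Log2 ratio of scaled footprint to scaled RNA level (vertical axis) in the 7 conditions whose RNA labels are not in doubt; points are the 4 genes, the grey box is the middle 50% of 8446 transcripts, the line their median, and the open triangle is Tnfaip3, unlisted in footprints and set to 0. Ccl2 lies above the box throughout and Cxcl1 in all but unstressed cells, at 3.10 after 2 h at 700 mOsm.

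The RNA profiles of the 4 genes over the 9 condition means resembled each other, with Pearson's r from 0.80 for Ccl2 with Tnfaip3 to 0.94 for Nfkbia with Tnfaip3. In footprints r ran from 0.56 for Ccl2 with Tnfaip3 to 0.89 for Nfkbia with Tnfaip3. These are descriptions over 9 means from shared libraries and shared scaling factors. Among all other transcripts, the 2 RNA profiles most like the mean of the 4 genes were ENSMUST00000043098 (r = 0.947) and ENSMUST00000060005 (r = 0.942), which the sources used here do not pair with a symbol. RNA of ENSMUST00000043098 stood at 6.08 and 5.35 scaled FPKM in unstressed cells, at 16.95 and 14.2 at 500 mOsm, and at 41.5 and 40.2 after long stress and 2 h of recovery. Its footprints stood at 25.9 and 20.5, 63.4 and 63.5, and 204 and 188 scaled RPKM in the same order. RNA of ENSMUST00000060005 stood at 16.4 and 16.2, 20.4 and 21.2, and 42.1 and 38.9 scaled FPKM in the same order.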

How the data were processed

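Ribosome footprints and cytoplasmic RNA of mouse embryonic fibroblasts were sequenced in 36 libraries. The submitters' processing notes name cutadapt, Bowtie, STAR and the build GRCm38, without versions or roles. How reads were counted is not given in the sources used here. Footprint values were deposited by the authors as RPKM per coding sequence and RNA values as FPKM per transcript, 1 list per library. Reads were recovered from these values as whole multiples (relative tolerance 1e-09); on simulated footprint values at least 99.72% of 10483 transcripts came back exactly. Libraries were scaled by median ratios over 4619 footprint and 5705 RNA transcripts, and log2(scaled value + 1) was taken, which understates the change of a low gene. A mean scaled value of 2 or more was required, which kept 8849 in footprints, 9275 in RNA and 8446 in both.

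The 2 footprint libraries of a condition gave a chi-square per degree of freedom of 1.00 to 1.08 over transcripts listed in both with at least 40 reads, against 3.44 to 47.1 in RNA, so they count as 1 sample. The value of 47.1 was that of unstressed RNA, the reference of most comparisons. That group also had the lowest precision weight in the RNA fit, 0.32, where the highest was 2.23. The tests planned for footprints and for translational efficiency were therefore replaced by values, with 2-fold as the mark. RNA was tested two-sided with limma 3.58.1 (R 4.3.3) in a joint fit of 18 libraries with group-wise precision weights, a mean-variance trend, and Benjamini-Hochberg adjusted p at a threshold of 0.05. "Rose" and "fell" refer to that threshold. On simulated RNA for long stress with 2 h of recovery, 50 of 50 transcripts set 2-fold up were called, 48 of 50 set 2-fold down, and 7 of 9102 left unchanged (9302 transcripts). At a set log2 change of 0.5, 24 of 50 were called, and at -0.5, 22 of 50. A gene not counted may thus have changed by that much. The simulation gave every group the same spread, so neither its shares of detected changes nor its share of false calls need hold for the real libraries. Replicate numbers did not pair the RNA libraries in general: over 36 pairs of conditions, deviations of same-numbered libraries had a median r of 0.01 (-0.31 to 0.31). In 6 of the 36 pairs r was over 0.1.

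The members and lists were chosen with earlier results of these data known. All 5 genes are named, and for likeness the 2 transcripts with the highest r to the mean RNA profile. A list of other NF-kB pathway genes and the cell type markers were not applied, because the sources used here do not pair transcript identifiers with symbols. Alternatives were another pseudocount, no filter, no scaling factors, equal weights, voom, a fit on 2 groups, a replicate block and each library left out; taking unlisted genes at the listing minimum was added after seeing the data.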

Additional observations from a re-analysis of the deposited data

Results flagged for a closer look

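Tnfaip3 RNA lay on opposite sides of unstressed cells at the 2 times of the 700 mOsm exposure. Its log2 change was 0.13 after 15 min, with both libraries above both unstressed libraries, and -0.39 after 2 h, with both libraries below them. Neither change passed the limma threshold with the settings used throughout, the second passed under several alternatives, and the difference between the 2 times was not tested.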

How the results depend on the processing

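The count of the 4 genes that rose in RNA was 4 under each alternative run at 500 mOsm and after long stress with 2 h of recovery, against each of its 3 references. Elsewhere counts moved. In RNA at 600 mOsm the count of 0 became 1 with equal weights, 2 with voom and 0 to 1 with a library left out. In the RNA libraries labelled 15 min with 2 h of recovery the count of 0 became 1 with equal weights, 1 with voom and 0 to 1 with a library left out, and for short stress the count of 1 became 1 to 2. In footprints the count of 2 became 1 without the scaling factors for 600 mOsm and for long stress, and 1 to 2 for either with a library left out. After short stress and 15 min of recovery the count of 1 became 2 with a pseudocount of 0.25. For the ratio of footprints to RNA, leaving out a library gave 1 to 2 in place of 2 for long stress. It gave 0 to 1 in place of 0 after short stress with 15 min of recovery and for long stress with 2 h of recovery. Ratio counts are not given for the 2 conditions whose RNA labels are in doubt. For long stress with 2 h of recovery against 700 mOsm for 2 h the ratio count of 1 was Cxcl1. Its ratio changed by -1.04 on the log2 scale, where 14.7% of transcripts lost at least 2-fold. That count became 0 without the scaling factors and 0 to 1 with a library left out. A library left out leaves a lone one that is assumed to vary like the other groups. The cause of these shifts was not tested. With a replicate block the pairing changed 1 call, Tnfaip3 at 700 mOsm for 2 h, where 3 genes passed in place of 2; calls over all transcripts moved by 1.00 to 1.19 times. No value past its threshold changed sign under the alternatives run. Depth limits Nfkbia and Tnfaip3 footprints at 700 mOsm, with 0 to 14 reads per condition.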
